A study of Homo sapiens with 12 samples.

Results

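Guides against STK11, which encodes the kinase LKB1, were enriched in HEK293 cells grown in the ethanol solvent but not under actinonin, whereas guides against its partner CAB39 were enriched in every condition. The 9 genes described here are the LKB1 complex (STK11, STRADA and CAB39) and the AMPK subunits PRKAA1, PRKAA2, PRKAB1, PRKAB2, PRKAG1 and PRKAG2, of 19112 genes in the screen. They were selected by name, but chosen by someone who knew earlier results of these data, among them the low z of STK11 under actinonin relative to EtOH. Their values are therefore given as a description, and the calls below are not independent evidence on these genes.

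HEK293 is a human embryonic kidney cell line. Its cells were transduced with the Brunello knockout library, whose guides each disrupt 1 gene, and the puromycin-selected pool was split into 4 conditions of 3 replicates, 12 samples in all. Cells were grown for 15 days in EtOH (solvent control), in actinonin at 15 µM (ACT), in chloramphenicol at 5 µg/mL (CAP) or in both at these doses (ACT CAP). ACT causes aberrant synthesis of mitochondrial proteins and CAP blocks the mitochondrial ribosome, so the comparisons ask which gene losses alter growth under either defect. In all conditions the medium held pyruvate and uridine, on which cells with failing respiration depend. A pooled screen reports growth in competition with other knockouts, and protein loss was not measured for the guides.

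LKB1 is a serine/threonine kinase and tumour suppressor that is active when bound to the pseudokinase STRAD (STRADA) and the scaffold MO25 (CAB39). It phosphorylates the activation loop of AMPK and of several related kinases. AMPK senses a falling energy charge through AMP and ADP bound to its gamma subunit, then restrains anabolic growth, in part through mTORC1, and promotes mitochondrial turnover. It is a heterotrimer of a catalytic alpha, a scaffold beta and a nucleotide-binding gamma subunit. Each type has more than one gene, and each guide targets a single one of them.

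The authors' deposited table holds a beta and a z for each gene and condition. Beta is the modelled enrichment or depletion of the gene's guides relative to a baseline that is left unnamed there, and z is beta divided by its standard error (SE). A positive value means that guides against the gene gained ground. All 9 genes were measured with 4 guides each. The median z of all genes was -2.03 in EtOH, -1.73 under ACT, -1.78 under CAP and -1.70 under ACT CAP, so most genes lay below 0, and only 7.29% lay above it in EtOH. Of the 36 z values of the 9 genes, 5 stood as calendar dates in the file and were recomputed from beta and its Wald p-value. They are the z of STK11 in EtOH, of CAB39 in ACT, CAP and ACT CAP, and of PRKAB1 in CAP. The other 31 values differed from the same recomputation by at most 7.23e-05. The SE that follows from the recomputed z of STK11 was 0.0857, close to the 0.0864 to 0.0874 from its intact values.

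Guides against STK11 were among the most enriched of the library in EtOH and lost that position under ACT. The beta of STK11 was 0.33 ± 0.0857 (SE of the fit over 3 replicates, as for every beta below) in EtOH, -0.20 ± 0.0874 under ACT, 0.0894 ± 0.0864 under CAP and -0.14 ± 0.0872 under ACT CAP. Its z was 3.87, -2.34, 1.03 and -1.61 in the same order. By z, STK11 ranked 6 from the top of 19112 genes in EtOH, 12313 under ACT, 324 under CAP and 9058 under ACT CAP. It was thus high in EtOH and lower in CAP, where its beta was about the size of its SE. In CAP 98.3% of genes still lay lower than STK11 in z. In ACT CAP it was near the middle of the library. In ACT it was below the middle, with 35.6% of genes lower in z.

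CAB39 stayed at the top of the library throughout. The beta of CAB39 was 0.95 ± 0.273 in EtOH, 0.87 ± 0.273 under ACT, 0.70 ± 0.273 under CAP and 0.71 ± 0.273 under ACT CAP. By beta it ranked 2, 2, 5 and 1 of all genes (in ACT behind TSC2, whose beta there was rebuilt), and its z of 3.47, 3.19, 2.56 and 2.61 ranked 8, 74, 25 and 11. The SE of CAB39 was larger than that of 99.9% of genes in each condition, so its beta and its changes between conditions are imprecise.

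The third member of the complex did not share either pattern. STRADA had a beta of -0.10 ± 0.0614 in EtOH, -0.0357 ± 0.0615 under ACT, -0.0763 ± 0.0614 under CAP and -0.12 ± 0.0615 under ACT CAP. Its z ran from -1.89 in ACT CAP to -0.58 in ACT. In EtOH the beta of STK11 exceeded that of STRADA by 0.43 ± 0.105 and in ACT it lay below it by 0.17 ± 0.107 (differences with joint SE). STRADB, a paralogue of STRADA, was also below 0 in each condition, with z between -3.49 and -1.82, as was the CAB39 paralogue CAB39L, with z between -2.45 and -1.17.

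**Figure D1:**
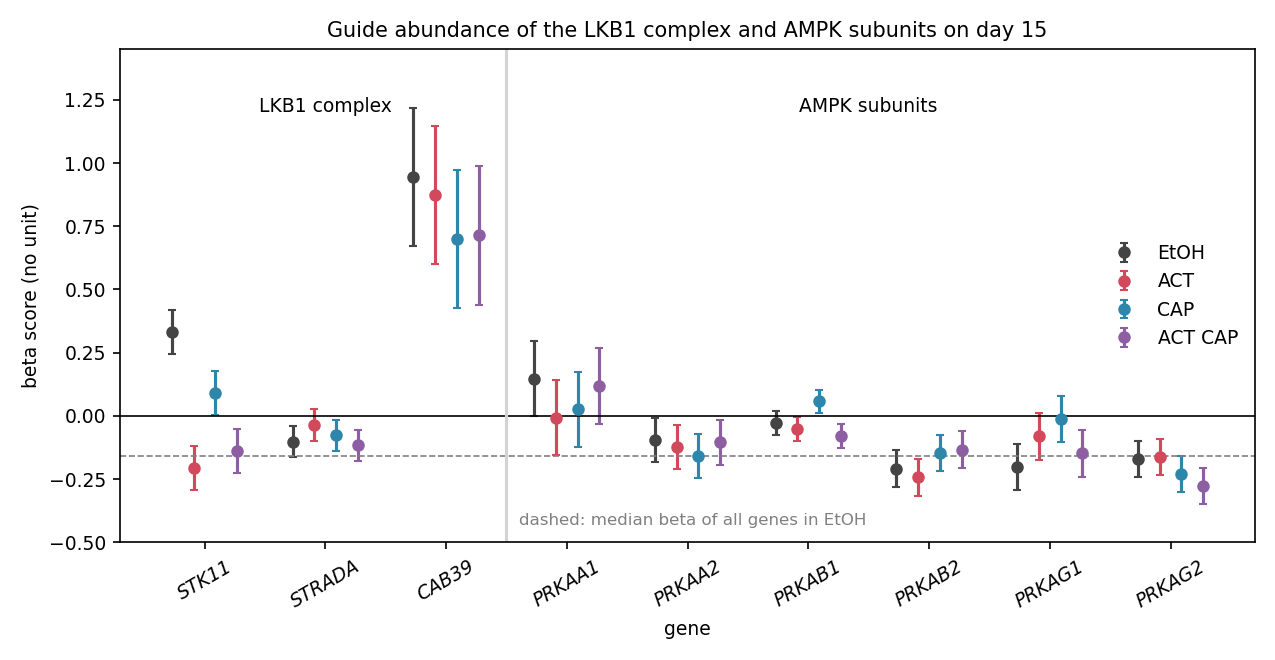
Beta score (vertical axis, no unit) of each of the 9 genes in EtOH, ACT, CAP and ACT CAP. Points are the fitted values over 3 replicates, bars their SE, and the dashed line the median of all genes in EtOH. STK11 lies at 0.33 in EtOH and below 0 in ACT and ACT CAP, CAB39 lies between 0.70 and 0.95 in all 4 conditions, and the AMPK subunits lie between -0.28 and 0.15.

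Most values of the AMPK subunits lay below 0, as did most of the library, but PRKAA1 in EtOH and ACT CAP and PRKAB1 in CAP stood higher than 95% of genes. PRKAA1, the catalytic alpha 1 subunit, was the only one above 0 in EtOH. Its beta was 0.15 ± 0.148 in EtOH, -0.0063 ± 0.149 under ACT, 0.0265 ± 0.149 under CAP and 0.12 ± 0.149 under ACT CAP, and its z ranked 267, 2687, 1380 and 525. The error of PRKAA1, at about the size of its highest beta, does not separate these values from 0 or from one another. PRKAA2, the alpha 2 subunit, had z of -1.10, -1.41, -1.83 and -1.19 in EtOH, ACT, CAP and ACT CAP. The beta of PRKAA1 was above that of PRKAA2 in each condition, by between 0.12 ± 0.173 in ACT and 0.24 ± 0.172 in EtOH.

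Of the scaffold subunits, PRKAB1 had the smallest error of the 9 genes. Its beta was -0.0276 ± 0.0458 in EtOH, -0.0518 ± 0.0458 under ACT, 0.0587 ± 0.0458 under CAP and -0.0796 ± 0.0458 under ACT CAP. It was above 0 only in CAP, where its z of 1.28 ranked 209. PRKAB2 lay lower, with z of -2.87, -3.34, -2.02 and -1.85 in EtOH, ACT, CAP and ACT CAP. The beta of PRKAB1 exceeded that of PRKAB2 by 0.18 ± 0.0856 in EtOH, 0.19 ± 0.0857 in ACT and 0.20 ± 0.0856 in CAP, and by 0.0544 ± 0.0857 in ACT CAP.

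The gamma subunits had similar values in EtOH and less similar ones in CAP. PRKAG1 had z of -2.22 in EtOH, -0.89 under ACT, -0.12 under CAP and -1.62 under ACT CAP. PRKAG2 had z of -2.40, -2.28, -3.26 and -3.90 in the same order, and in ACT CAP it ranked 17548. Their betas differed by -0.0332 ± 0.115 in EtOH (PRKAG1 minus PRKAG2) and by 0.22 ± 0.115 in CAP.

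Ordered by beta, CAB39 came first in all 4 conditions, followed by STK11 in EtOH and CAP and by PRKAA1 in ACT and ACT CAP. The lowest was PRKAB2 in EtOH and ACT and PRKAG2 in CAP and ACT CAP. Of the 8 pairs of neighbours in each order, 3 in EtOH, 1 under ACT, 1 under CAP and 3 under ACT CAP differed by more than their joint SE. The step from CAB39 to the next gene was among them in every condition, and the order below PRKAB1 in EtOH was not resolved.

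Conditions were then compared for each gene. The difference of beta was divided by its joint SE, centred on the median of all genes and scaled by their spread, and this scaled value is called the Wald difference. A gene was called at a Benjamini-Hochberg adjusted 2-sided normal p under 0.05, with the adjustment made over the whole library. All 3 comparisons with EtOH rest on the same control values, and a high EtOH value lowers each of them. By the paper's account the drug doses also inhibited growth. How this affected the comparisons with EtOH was not tested.

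Under ACT, guides against STK11 fell far below their EtOH level. Its z difference from EtOH was -6.21 and its beta difference -0.54 ± 0.122, with a Wald difference of -5.18 where the smallest that passed was 3.43 in size. It ranked 5 from the bottom of all genes by z difference. The neighbours in that order were YME1L1, an inner membrane protease (-7.14), and FASTKD3, which acts on mitochondrial transcripts (-5.61). STK11 was the 1 of the 9 genes called lower and none was called higher, against 0.157% of all genes called lower and 1.23% called in either direction.

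Under ACT CAP, STK11 gave a z difference of -5.48 and a beta difference of -0.47 ± 0.122, with a Wald difference of -5.77. It ranked 3 from the bottom, between the hexokinase HK1 (-5.82) and the peptidase NLN (-5.43). Again 1 of the 9 was called lower and none higher, against 0.0837% of all genes called lower and 0.277% called in either direction. This call was lost when the Wald difference was read against an unscaled normal distribution and when the trend along EtOH z was removed with a shrinking window. With CAP alone the difference of STK11 was -2.84 in z and -0.24 ± 0.122 in beta. Its Wald difference of -3.06 did not pass, the smallest that did being 3.85, and it ranked 50 from the bottom between TSPAN3 (-2.84) and HECTD3 (-2.82). None of the 9 was called, against 0.251% of all genes. STK11 was the only one of the 9 with an unadjusted p under 0.05 in that comparison, which 6.84% of all genes reached.

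Genes picked for a high z in 1 condition tend to lie lower in another, so STK11 was set beside other genes with a high EtOH value. Of the 20 genes with the highest z in EtOH (a number chosen after the values were seen), 19 lay lower in ACT, with a median z difference of -1.96. STK11 was the lowest of these 20 at -6.21, and the next was the tetraspanin CD81 at -3.88. In ACT CAP the median of the 20 was -2.18, and STK11 was again the lowest, followed by NPRL3 at -4.92, while in CAP it was 4th from the lowest. Because STK11 was chosen with its fall under ACT known, its place among the 20 is a description and no independent check. STK11 was then measured from a running median of the difference along EtOH z, taken over a fixed number of genes. It lay at -5.32 under ACT, -2.12 under CAP and -4.73 under ACT CAP. This median was held constant at the ends of the range. STK11 was thus compared with genes that mostly lay lower in EtOH, and the trend at its own level was not fully removed. A window that shrinks towards the ends of the range was an alternative chosen after the data were seen. Near the top of the range, where STK11 lay, it holds few genes. With that window STK11 lay at -3.19 under ACT, -0.78 under CAP and -2.20 under ACT CAP.

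**Figure D2:**
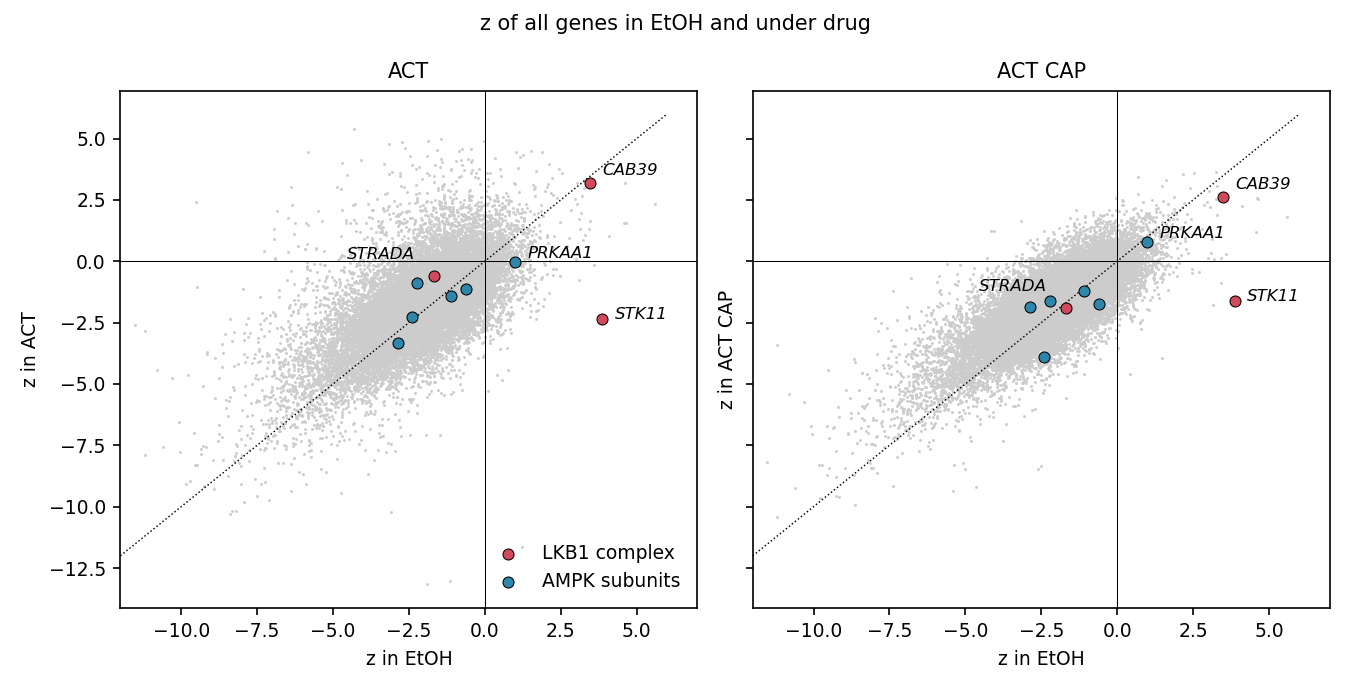
Each grey point is a gene, placed by its z in EtOH (horizontal axis) and in ACT or ACT CAP (vertical axis); the dotted line marks equal z, and genes left of the axis limit in EtOH are not drawn. STK11 lies at 3.87 in EtOH and at -2.34 and -1.61 under drug, far below the line, whereas CAB39 lies close to it in both panels.

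The other 8 genes did not pass in any comparison with EtOH. CAB39 had a z difference of -0.27 under ACT, -0.91 under CAP and -0.86 under ACT CAP. In beta these were -0.0741 ± 0.386, -0.25 ± 0.386 and -0.23 ± 0.386. The 95% interval of its change in ACT, -0.83 to 0.68, contains the change of -0.54 seen for STK11, and the change of STK11 minus that of CAB39 was -0.46 (95% interval -1.26 to 0.33). On the beta scale the changes of the kinase and of its scaffold were therefore not separated, although CAB39 remained far above 0 and STK11 did not.

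STRADA differed from EtOH by 1.09 under ACT, 0.43 under CAP and -0.22 under ACT CAP in z. The change of STK11 lay below that of STRADA by 0.60 in beta in ACT (95% interval of the difference -0.90 to -0.31) and by 0.46 in ACT CAP (-0.75 to -0.16). The same interval excluded 0 for PRKAA2, PRKAB1, PRKAB2, PRKAG1 and PRKAG2 in ACT and in ACT CAP. It did not do so for PRKAA1 in either condition, where the difference was -0.38 (-0.86 to 0.0942) in ACT and -0.44 (-0.92 to 0.0335) in ACT CAP. In CAP the interval excluded 0 for PRKAB1 and PRKAG1 alone, and for STRADA it ran from -0.56 to 0.0246. The intervals were not adjusted for their number. As STK11 was chosen with its fall under ACT known, they serve as a description only.

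Among the AMPK subunits the z differences from EtOH ran from -1.04 for PRKAA1 to 1.33 for PRKAG1 in ACT. In CAP they ran from -0.86 for PRKAG2 to 2.11 for PRKAG1, with PRKAB1 next at 1.88. In ACT CAP they ran from -1.50 for PRKAG2 to 1.02 for PRKAB2. The Wald differences of the subunits lay between -1.85 and 1.81 in these comparisons. Over the 9 genes the median z difference was -0.31 under ACT, -0.72 under CAP and -0.22 under both drugs, beside 0.32, 0.28 and 0.36 over the library. Of the 9, 7, 5 and 7 lay below the median of all genes.

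**Figure D3:**
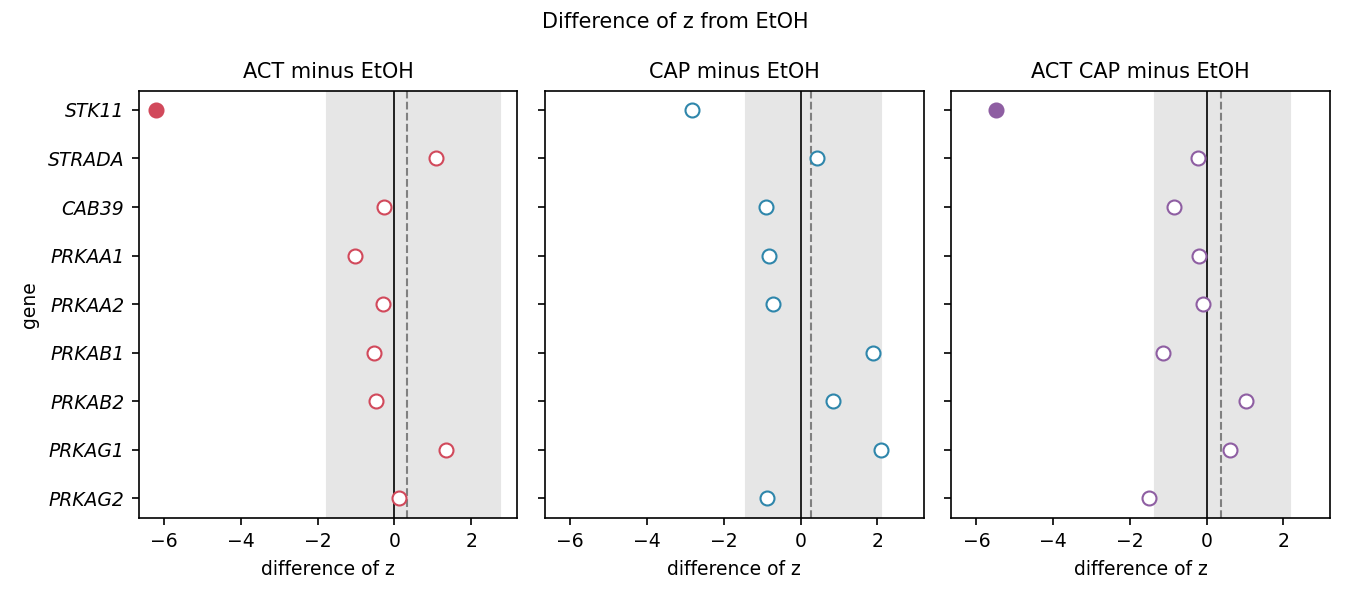
Difference of z from EtOH (horizontal axis) for each of the 9 genes in ACT, CAP and ACT CAP. Filled points passed the test over all genes and open points did not; grey bands span the 5th to 95th percentile of all genes and dashed lines mark their median. STK11 lies at -6.21, -2.84 and -5.48, and the other genes lie inside the bands except PRKAG1 in CAP (2.11) and PRKAG2 in ACT CAP (-1.50).

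ACT alone and ACT CAP were also compared directly. STK11 differed by -0.73 in z and by -0.0641 ± 0.123 in beta (ACT minus ACT CAP), and none of the 9 was called, against 0.821% of all genes; none had an unadjusted p under 0.05. The largest differences were 1.62 for PRKAG2 and -1.49 for PRKAB2. An interaction asks whether the change in beta brought by ACT differs when CAP is present. For STK11 that change was -0.54 from EtOH to ACT and -0.23 from CAP to ACT CAP, an interaction of 0.31 ± 0.173 with a Wald difference of 2.51. It did not pass at this precision (smallest passed 3.63), and none of the 9 was called, against 0.612% of all genes.

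A pair of further comparisons was added after the values were seen. Against CAP, STK11 lay lower by z in ACT (-3.37) and ACT CAP (-2.64), with Wald differences of -3.13 and -3.11. PRKAB1, the only AMPK subunit of comparable size here, gave -2.41 and -3.02, with Wald differences of -2.25 and -3.53. None of the 9 was called in either, against 0.759% of all genes for ACT against CAP and 0.0471% for ACT CAP against CAP, although STK11 and PRKAB1 had an unadjusted p under 0.05 in both, as did 7.50% and 6.21% of all genes.

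Genes with the most similar pattern were found by the Euclidean distance over z in the 4 conditions. The 5 nearest to STK11 were FIBP, CDH2 (N-cadherin), CD81, C7orf60 (the S-adenosylmethionine sensor SAMTOR) and CAPRIN1 (an RNA-binding protein), at distances of 2.46 to 2.76. None of them combined as high a z in EtOH with as low a z in ACT CAP. In nearness to STK11, STRADA came at place 6862 and CAB39 at place 10999. The place depends on the starting gene, and from CAB39 STK11 came at place 2980. The 5 nearest to CAB39 were TSC1, at 0.58, and RFWD2, ELMSAN1, DET1 and RBPJ, at 1.07 to 1.30. TSC1 is a subunit of the complex that holds mTORC1 in check, and its z was 3.03 in EtOH, 3.18 under ACT, 2.84 under CAP and 2.86 under ACT CAP. Genes near STRADA, at distances of 0.18 to 0.24, included MYOM2 and SFTPA1, known for roles in muscle and lung, besides XK and OGFOD2. With z standardised in each condition the 5 nearest genes were the same for all 3.

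A further 44 genes around LKB1 and AMPK, in 6 lists, were read beside the 9. None of the 44 was called in ACT, CAP or ACT CAP against EtOH. At an unadjusted p under 0.05 there were 2, 4 and 3 of them, and 7.74%, 6.84% and 6.76% of all genes. The 3 paralogues of the members had a median z difference of -1.09 under ACT, -0.72 under CAP and -1.02 under ACT CAP. STRADB was the highest of them in each (0.52, 1.67 and 0.24), and the lowest was CAB39L in ACT (-1.28) and PRKAG3, the third gamma subunit gene, in CAP (-1.41) and ACT CAP (-1.54).

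Of the 12 other kinases that LKB1 activates none was called. Their median z difference from EtOH was -0.24 under ACT, 0.0146 under CAP and -0.10 under ACT CAP. The lowest in ACT was SIK2, a salt-inducible kinase that restrains CREB coactivators (-2.75, Wald difference -2.44), and the highest NUAK2 (2.16, Wald difference 1.47). NUAK2 was also the highest in CAP (1.57), and BRSK2 in ACT CAP (1.19). The lowest in CAP and ACT CAP was SNRK (-2.17 and -1.45). In EtOH their z ran from -3.90 for BRSK2 to 0.33 for SNRK, so no single one was near the 3.87 of STK11. Of the 6 SIK substrates, the transcriptional coactivator CRTC3 was highest in ACT CAP (1.88) and the histone deacetylase HDAC7 lowest in ACT (-0.95) and ACT CAP (-1.99), while HDAC4 was highest in ACT (1.57) and CAP (1.95) and HDAC5 lowest in CAP (-0.43). The median of these 6 was 0.52, 0.24 and 0.59 in the order ACT, CAP, ACT CAP.

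Kinases that can phosphorylate AMPK in place of LKB1 are CAMKK1, CAMKK2 and MAP3K7 (TAK1). CAMKK1, a calcium/calmodulin-dependent kinase kinase, had the highest z difference of the 3 in each drug condition (0.99 under ACT, 1.33 under CAP and 1.74 under ACT CAP), from a z of -5.27 in EtOH. The median of the 3 was 0.73, 0.62 and 1.17. MAP3K7 had the lowest, with 0.22 in ACT and -1.28 in ACT CAP.

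Among 17 AMPK substrates, the median z difference was 0.26 under ACT, 0.15 under CAP and 0.73 under ACT CAP. The highest were ARMC10, an outer mitochondrial membrane protein, in ACT (3.18, Wald difference 2.28), SREBF1, a transcription factor of lipid synthesis, in CAP (3.34, Wald difference 3.03), and the acetyl-CoA carboxylase ACACA in ACT CAP (2.59, Wald difference 2.21). The lowest were PFKFB3, which makes an activator of glycolysis, in ACT (-1.69) and the Rab GTPase-activating protein TBC1D1 in CAP and ACT CAP (-2.59 and -2.12). In EtOH guides against some substrates were strongly depleted, with a z of -9.36 for ACACA and -5.71 for RPTOR, a subunit of mTORC1. ARMC10 and SREBF1 were also low there, at -3.53 and -3.72. Their z stayed below 0 under drug, at -0.35 for ARMC10 in ACT and -0.38 for SREBF1 in CAP.

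In the TSC complex, which AMPK phosphorylates on TSC2 to restrain mTORC1, TSC1 and TSC2 had high values in all 4 conditions. The third subunit, TBC1D7, had lower ones. By z it still lay above 95.8% of genes in EtOH, 98.5% in ACT and 97.6% in ACT CAP, and above 85.5% in CAP. The beta of TSC1 was 0.69 ± 0.228 in EtOH, 0.73 ± 0.228 under ACT, 0.65 ± 0.228 under CAP and 0.65 ± 0.228 under ACT CAP. That of TSC2 was 0.90 ± 0.366, 1.37 ± 0.366, 0.81 ± 0.367 and 0.64 ± 0.367, where the ACT value stood as a date and was rebuilt from its z and the SE in EtOH. The z of TSC2 was recomputed in all 4 conditions, and that of TSC1 in CAP and ACT CAP. By beta in EtOH, CAB39, TSC2 and TSC1 ranked 2, 3 and 5 of all genes. The SE of TSC2 and TSC1 there lay at percentiles 99.99 and 99.3 of all genes, so these ranks are imprecise. TBC1D7 had a z of 0.36 in EtOH, 1.99 with ACT, -0.33 with CAP and 0.86 with both drugs. Its z difference of 1.63 in ACT was the highest of the complex (Wald difference 1.05), and that of TSC2 in ACT CAP, -0.71, the lowest. In CAP the highest was TSC1 (-0.19) and the lowest TBC1D7 (-0.70), and the lowest in ACT was TSC1 (0.15). The median of the 3 was 1.31 in ACT, -0.25 in CAP and, with both drugs, -0.17.

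**Figure D4:**
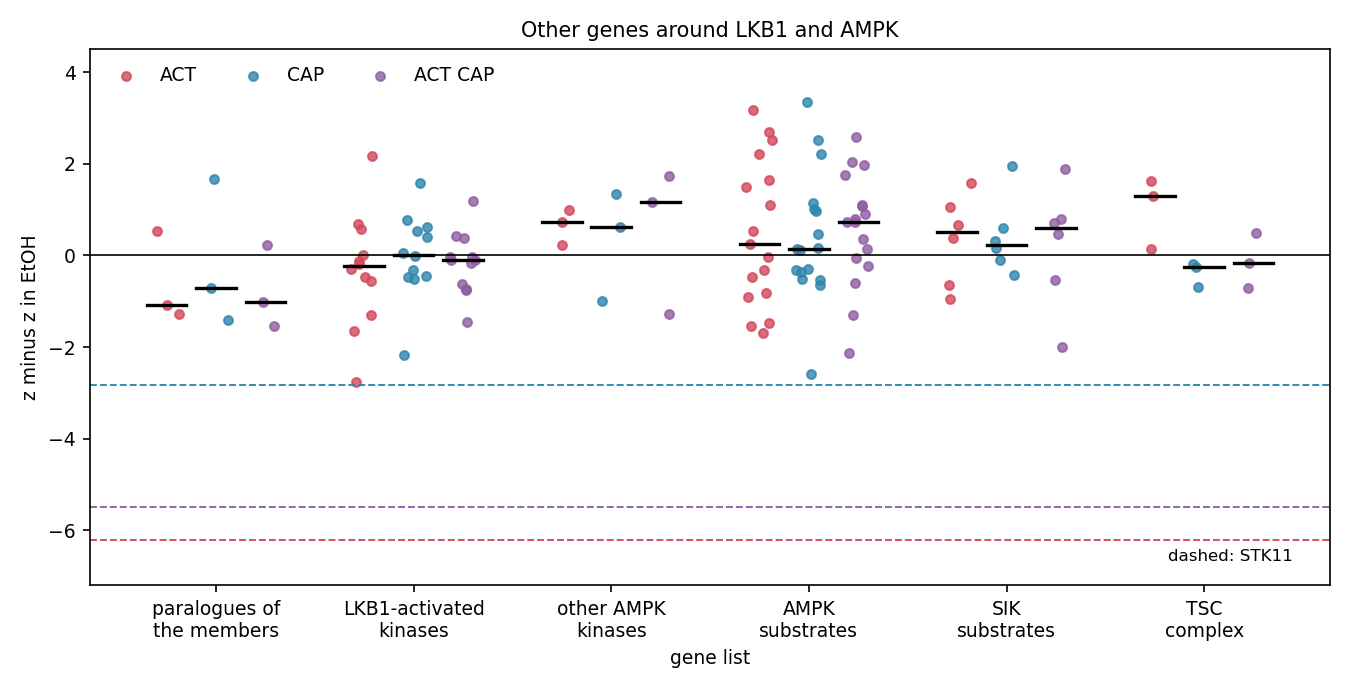
Each point is 1 of the 44 genes in 6 lists, and the vertical axis gives its z difference from EtOH under each drug condition. Black bars are medians of the list and dashed lines mark STK11 (-6.21, -2.84 and -5.48). No listed gene reaches the ACT or ACT CAP line of STK11.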

How the data were processed

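Genomic DNA was taken on day 15 from HEK293 cells of 4 conditions (3 replicates each), and guides were amplified and sequenced by the authors. The authors processed the reads with MAGeCK (version not given in the sources used here). The authors deposited a gene table of beta scores and z scores per condition, fitted over replicates and guides, with Wald p-values. Values per replicate or guide, read depth and guide sequences were not used here, so precision is that of the fit's SE.

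Among the deposited values, 1146 of 76448 z scores stood as dates and were recomputed as the normal quantile of the Wald p-value with the sign of beta, to within 0.00102 on intact cells. The 1 beta that stood as a date was rebuilt from z. Joint SE is the root of the summed squared SE (beta over z), with no covariance. The scale was 1.4826 times the median absolute deviation. The spread over all genes was 0.618 to 0.888 of what the SE imply. No exact test could be run on single genes, so no p is printed for them.

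The members and lists were chosen with earlier results of these data known. Named genes are the 9 members, the list genes highest and lowest in each comparison with EtOH or called there, the 5 genes nearest to each LKB1 complex member (1 is not reported here), and the neighbours of STK11 in rank against EtOH. Others (RPTOR, CAMKK2, NPRL3) were named after their values were seen. All 9 members and 44 list genes are current RefSeq symbols (GRCh38.p14). The code was tested on simulated data, which enter no reported value. Software was scipy 1.17.1 with pandas 2.3.3 on numpy 2.4.6 (Python 3.11.15), and plots were drawn in matplotlib 3.10.9.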

Additional observations from a re-analysis of the deposited data

How the results depend on the processing

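No paired analysis was possible because the deposited table pools the replicates of each condition, and for the same reason no replicate could be left out. The call of STK11 in ACT against EtOH was kept under each alternative. Those with a test were an unscaled normal null, a cut-off of 0.01 on adjusted p, and genes with exactly 4 sgRNAs. The others used a fixed cut-off and no test. They were z differences of 3 or 4, z centred, z standardised, and the running median with a fixed or a shrinking window. The cut-off was 3 for z centred and the running median, and 2 for z standardised. On these scales STK11 had a z difference of -3.19 to -6.51. The -3.19, from the shrinking window, was close to its cut-off. In ACT CAP the count of members called fell from 1 to 0 with the unscaled normal null and with the shrinking window, which was chosen after seeing the data (-2.20 for STK11). In CAP it went from 0 to 1 with z centred on its median (-3.09 for STK11). In the comparisons with CAP it went from 0 to 1 with a z difference of 3, with z centred and with z standardised, by STK11 in ACT and by PRKAB1 in ACT CAP. ACT against ACT CAP called none of the members under these alternatives, nor did the interaction under the first 3. No member called at a z difference of 3 changed sign under another scale. With the shrinking window CAB39 came to 1.94 under ACT, 0.11 under CAP and 1.16 under both, in place of values below 0.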
